A study of Mus musculus with 23 samples.

Results

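The cytosolic ribosome is built from a small and a large subunit, each of them ribosomal RNA wrapped in proteins encoded by the Rps and Rpl genes. The 73 genes described here are those whose mouse symbol follows that naming pattern, or is Rpsa, Rplp0, Rplp1 or Rplp2, and that averaged 10 normalized reads or more over all libraries, out of 16259 genes in the table. They comprise 28 small subunit genes, 41 large subunit genes, 3 genes of the P stalk and 1 paralogue, Rps27l. A further 4 symbols matched the pattern and stood below the mean: Rpl24, Rpl23a, Rps13 and Rps10, at means of 1.26, 3.22, 6.52 and 7.62 normalized reads. Of the members, Rps29 (13.7), Rps23 (14.1) and Rps27a (19.8) stood nearest above it.

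The RNA was poly-A selected from whole proximal small intestine of mice labelled male, in 23 libraries, 11 from Ddit4 knockout mice (KO) and 12 from wild-type mice (WT). Ddit4, also called REDD1, encodes a stress-induced brake on mTORC1. Mice were untreated (8 libraries) or received the anthracycline doxorubicin, which damages DNA, at a dose of 20 mg/kg into the peritoneum (15 libraries). Without the drug there were mice fasted for 24 h, mice fasted and then refed for 2 or 6 h, and mice fed ad libitum, all but the refed labelled 0 h. With the drug, mice fasted beforehand and given food again (called prefasted) and mice fed ad libitum were sampled at 2, 6, 12 and 24 h. Every combination had 1 KO and 1 WT library, except that the KO library fed ad libitum at 2 h of the drug was not analysed here, so KO and WT libraries of a condition stand in for replicates. Nothing in the labels says whether a library came from 1 mouse or several, so the p-values reflect no more than how these libraries vary.

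Ribosomal protein genes are among the most strongly translated genes of any dividing cell. Their mRNAs carry a 5′ terminal oligopyrimidine tract (TOP), a cytosine at the cap followed by an unbroken run of pyrimidines. When mTORC1 is active these mRNAs are translated, and when it is inhibited LARP1 and 4E-BP proteins hold them back. In the intestine, ribosome production is highest in the proliferating crypts. Free RPL5 and RPL11 bound to 5S rRNA also restrain MDM2, the p53 antagonist, when ribosome assembly fails, and DNA-damaging drugs that act on the nucleolus are known to trigger this.

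The tract was sought in the sequence at the annotated start, where a start listed a few bases off would miss it. RefSeq promoters (build GRCm38.p6, the assembly also called mm10) were available for 54 of the 73 genes. A start at C with at least 5 pyrimidines in a row was found in 12 of the 54 (22.2%), against 263 of 9525 other genes (2.76%). Within 10 bases before to 30 after the start, 25 of the 54 (46.3%) held a C followed by at least 7 pyrimidines in a row, against 13.7% of the others. The ETS-type letters CCGGAAG, sought on both strands of the same 300-base windows, stood in 42.6% of members and 20.0% of the others. The YY1-type letters AAGATGGC stood in 9.26% and 5.32%, and the GC box letters GGGCGG in 61.1% and 67.8%. The windows below are those of the 8 members with the longest tracts, and of Rps27 beside its paralogue Rps27l, whose listed start has no tract. Each shows 12 bases before the start and 18 from it, with the pyrimidine run from the start in capitals.

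Rpl15 (chr14:18270969-18270998, minus strand): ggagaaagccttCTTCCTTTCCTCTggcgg
Rpl35 (chr2:39005114-39005143, minus strand): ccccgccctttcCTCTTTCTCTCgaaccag
Rps18 (chr17:33955648-33955677, minus strand): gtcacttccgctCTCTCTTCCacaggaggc
Rps6 (chr4:86857350-86857379, minus strand): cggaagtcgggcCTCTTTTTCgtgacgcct
Rpl28 (chr7:4792953-4792982, plus strand): cctctcgtgtctCTCTTTCCgtctccggcc
Rpl35a (chr16:33056470-33056499, plus strand): gggcttgccttcCTCTTTCCgccatcttgg
Rpl38 (chr11:114668568-114668597, plus strand): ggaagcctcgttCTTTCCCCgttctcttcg
Rps15a (chr7:118116130-118116159, minus strand): tctttctgccatCTTCCCTCgccggtgagt
Rps27 (chr3:90213631-90213660, minus strand): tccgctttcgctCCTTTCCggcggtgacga
Rps27l (chr9:66946074-66946103, plus strand): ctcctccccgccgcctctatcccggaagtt

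The runs are 13 bases in Rpl15, 11 in Rpl35, 9 in Rps18 and Rps6, 8 in Rpl28, Rpl35a, Rpl38 and Rps15a, and 7 in Rps27. These are descriptions of the annotation, and the libraries measure mRNA amount, not translation.

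The libraries held 11418115 to 23428519 reads in genes. Together the 73 genes took 0.226% to 1.03% of them (median 0.469%, 46174 to 175525 reads per library), with counting intervals (Wilson, 95%) at most 0.00480 percentage points to either side. Ddit4 itself stood at 0 to 11.3 normalized reads in the KO libraries and 66.9 to 414 in the WT libraries. Although all mice are labelled male, 3 untreated KO libraries (ad libitum, fasted, and refed for 2 h) lack reads of Y-linked genes. Transcripts of pancreatic acinar cells, the enzyme-secreting cells of a neighbouring organ, were abundant in the KO fasted and the WT refed 6 h libraries. The 4 WT prefasted doxorubicin libraries have titles that say untreated, and their drug label was used. Counts or medians without these libraries are given beside many of the results, though not for every comparison and setting.

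Levels differed widely between the genes, and genes that share more sequence with other transcripts were lower. Per kilobase of transcript, Rps14 (10595 normalized reads per kb), Rplp1 (8357) and Rps15 (5732) were highest among the members and Rpl12 (19.7), Rps23 and Rpl5 (12.5) lowest. Most ribosomal proteins are present once in each ribosome, and their genes have many processed pseudogenes. Of the 100-base words of each transcript, 0% to 98.4% were also found in transcripts of other genes. The 33 symbols with at least 50% of their words shared had a median of 97.7 normalized reads per kb, and the 44 others 1287. The 6 genes with no shared word, among them Rpl22, Rpl32 and Rps27l, stood between 691 and 4457, while the 17 symbols with more than 65% shared stood between 1.87 and 473. Across the 77 symbols, which share libraries and depth, Spearman's rho between shared words and level was -0.617. How reads that fit several genes were counted is not given in the sources used here, so levels of members with much shared sequence are uncertain.

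**Figure D1:**
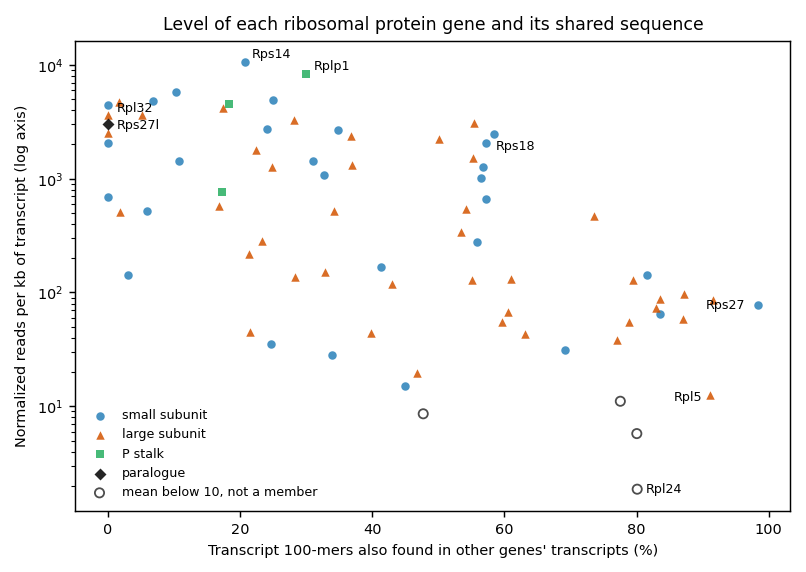
Each point is 1 of the 77 symbols that match the naming pattern, with the share of its transcript's 100-base words found in other genes' transcripts (x axis, percent) and its mean normalized reads per kb (y axis, log scale); open circles are the 4 symbols below the mean of 10. Symbols with little shared sequence, such as Rps27l and Rpl32 at 0%, lie high, and those above 65% all lie at or below 473 reads per kb.

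On mm10, with GENCODE gene models, the genes the results turn on include Rps18 (chromosome 17, 33951999 to 33956001, 5 exons), Rps28 (chromosome 17, 33819027 to 33824562, 4 exons), Rpl3 (chromosome 15, 80077791 to 80091868, 10 exons) and Rpl32 (chromosome 6, 115805505 to 115808747, 4 exons). Rpl22 lies on chromosome 4 (152325742 to 152334071, 4 exons), Rplp0 on chromosome 5 (115559467 to 115563727, 7 exons) and Rps27l on chromosome 9 (66946086 to 66949516, 4 exons). All coordinates span the whole gene.

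Over the libraries most members moved together. Of each library, the median over the 73 genes of the deviation from the gene's own mean (log2(value + 1)) gives 1 summary. It was highest in the WT library refed for 2 h (0.92), the KO fasted library (0.74) and the KO prefasted library 2 h after doxorubicin (0.66). It was lowest 12 h after doxorubicin, at -0.86 in the KO prefasted, -0.79 in the KO ad libitum, -0.45 in the WT ad libitum and -0.41 in the WT prefasted library. All 73 genes stood above their own mean in the WT library refed for 2 h, and 3 of 73 in the KO ad libitum library at 12 h of doxorubicin. The rank correlation of a member with this median over the 23 libraries had a median of 0.858 over the members, from 0.0128 to 0.979. The lowest were Rpl38 (0.0128), Rpl10 (0.0988) and Rps29 (0.123), all at a mean below 100 normalized reads.

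**Figure D2:**
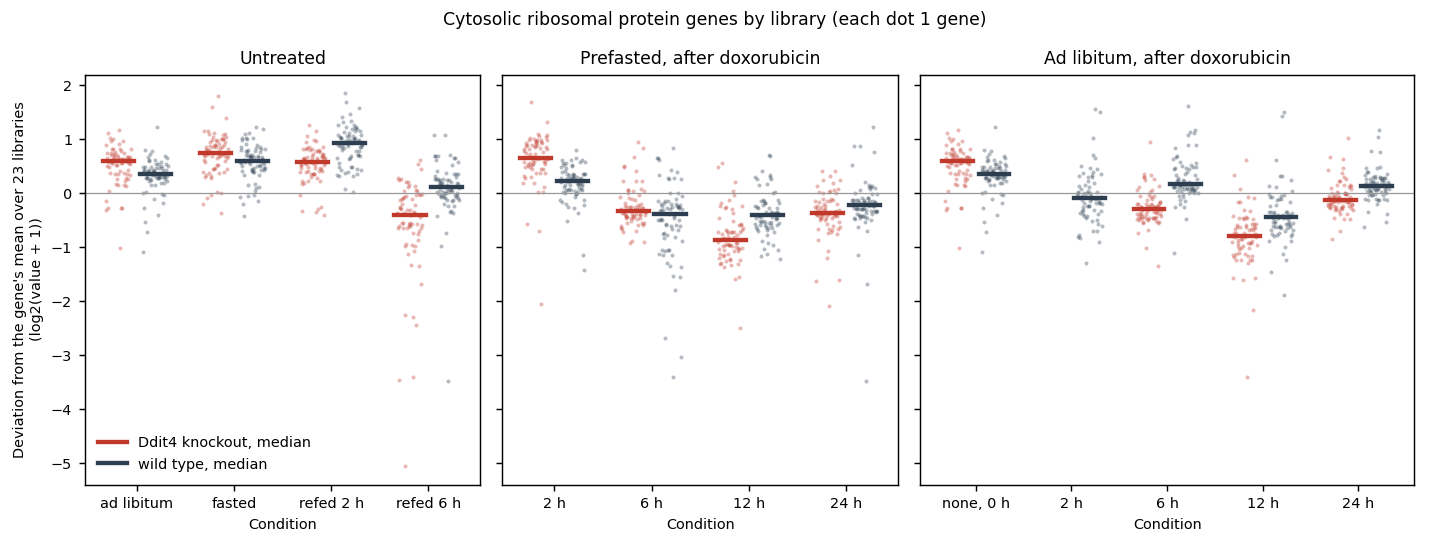
Each dot is 1 of the 73 genes in 1 library, as its deviation from its own mean over the 23 libraries (y axis, log2(value + 1)), with KO in red left of WT in dark blue and a bar at the median; conditions run along the x axis. The medians lie between 0.35 and 0.92 in untreated ad libitum, fasted and 2 h refed libraries and are lowest at 12 h of doxorubicin, at -0.86 and -0.79 in the KO libraries; KO fed ad libitum has no library at 2 h.

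The members also differed in how much they moved. The SD of log2 values over the 23 libraries was smallest for Rps27l (0.31), Rpl18 (0.39) and Rpl15 (0.40). Rps23 (1.54), Rpl36a (1.42) and Rps29 (1.36) had the largest, at means of 14.1, 42.6 and 13.7 normalized reads, where 1 read stands for 0.705 to 1.67 normalized reads.

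Doxorubicin was compared with no drug in mice fed ad libitum to follow these genes through the first day after DNA damage. At 12 h, 37 of the 73 genes fell and 0 rose, where 4.21% of the 11939 genes tested fell and 4.78% rose (limma, Benjamini-Hochberg adjusted p under 0.05 over all genes tested). The log2 fold was below 0 for 71 of 73, with a median of -1.06, a 2.08-fold lower level, against a median of -0.01 over all genes tested. The untreated ad libitum libraries were taken at 0 h only, so time of day and time in the experiment cannot be told apart from the drug. Of the small subunit genes 19 of 28 fell, of the large subunit 16 of 41 and of the P stalk 2 of 3. Of the 30 members averaging 1000 normalized reads or more 23 fell, and of the 24 with a mean under 100 only 2 did.

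Rps18, a protein of the small subunit head, had 462 (KO) and 638 (WT) normalized reads at 12 h of doxorubicin, against 2249 (KO) and 1464 (WT) without the drug. The log2 fold was -1.74 ± 0.33 (SE, 2 libraries per condition, adjusted p = 0.0054). Rps28, also of the small subunit, had 19.6 (KO) and 35.5 (WT) at 12 h, against 93.7 (KO) and 88.2 (WT), with a log2 fold of -1.74 ± 0.48 (adjusted p = 0.034). Of the large subunit, Rpl3, which lies near the peptidyl transferase centre, had 58.9 (KO) and 90.7 (WT) at 12 h, against 239 (KO) and 244 (WT). Its log2 fold was -1.71 ± 0.38 (adjusted p = 0.012). Rpl32 had 825 (KO) and 933 (WT), against 3167 (KO) and 2577 (WT), with a log2 fold of -1.70 ± 0.33 (adjusted p = 0.0060). The conditions did not overlap in these 4 genes, which their choice as the largest falls past the threshold already implies.

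Rpl22, named after its values were seen, which mice can live without and which shares no word with another transcript, had 494 (KO) and 594 (WT) normalized reads, against 1837 (KO) and 1481 (WT). Its log2 fold was -1.60 ± 0.21 (adjusted p = 0.00044), the smallest adjusted p of any member here. Of the P stalk, the lateral protuberance that recruits elongation factors, the scaffold Rplp0 fell, with 2748 (KO) and 3255 (WT), against 8742 (KO) and 7748 (WT), a log2 fold of -1.46 ± 0.27 (adjusted p = 0.0045). Rplp1 fell too (log2 fold -1.08 ± 0.29, adjusted p = 0.030), and its dimer partner Rplp2 had -1.09 ± 0.36 (adjusted p = 0.067). Rpsa, a small subunit protein that also serves as a laminin receptor, fell by 0.95 ± 0.24 on the log2 scale (adjusted p = 0.023), and Rps4x, of the small subunit, by 1.06 ± 0.24 (adjusted p = 0.014).

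Rpl5 and Rpl11, which bind 5S rRNA, and Rps6 did not pass the threshold at 12 h. Their means over all libraries were low, at 25.5, 45.7 and 56.4 normalized reads, and they do not stand for all members linked to p53 or mTORC1. Rpl5 had 8.41 (KO) and 5.26 (WT) normalized reads at 12 h, against 18.1 (KO) and 27.8 (WT), a log2 fold of -1.61 ± 0.76 that missed the threshold (adjusted p = 0.20). Rpl11 had -0.82 ± 0.43 (adjusted p = 0.25), and Rps6, the substrate of S6 kinase, -0.81 ± 0.61 (adjusted p = 0.45). For Rps27a, which encodes ubiquitin fused to a ribosomal protein, the log2 fold was -1.52 ± 0.89 (adjusted p = 0.31), and for Rpl10 it was -0.01 ± 0.53. Rpl39 had -0.89 ± 0.31 (adjusted p = 0.079).

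Rps27l, a p53 target in human and mouse cells, did not pass either. It had 1571 (KO) and 1593 (WT) normalized reads at 12 h, against 2379 (KO) and 1763 (WT), a log2 fold of -0.37 ± 0.28 (adjusted p = 0.44). Rps27 had 29.9 (KO) and 7.89 (WT), against 19.2 (KO) and 15.9 (WT), a log2 fold of -0.15 ± 0.88 (adjusted p = 0.94). Almost all of the words of Rps27 (98.4%) occur in other transcripts and none (0%) of those of Rps27l, so their levels cannot be compared on equal terms.

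**Figure D3:**
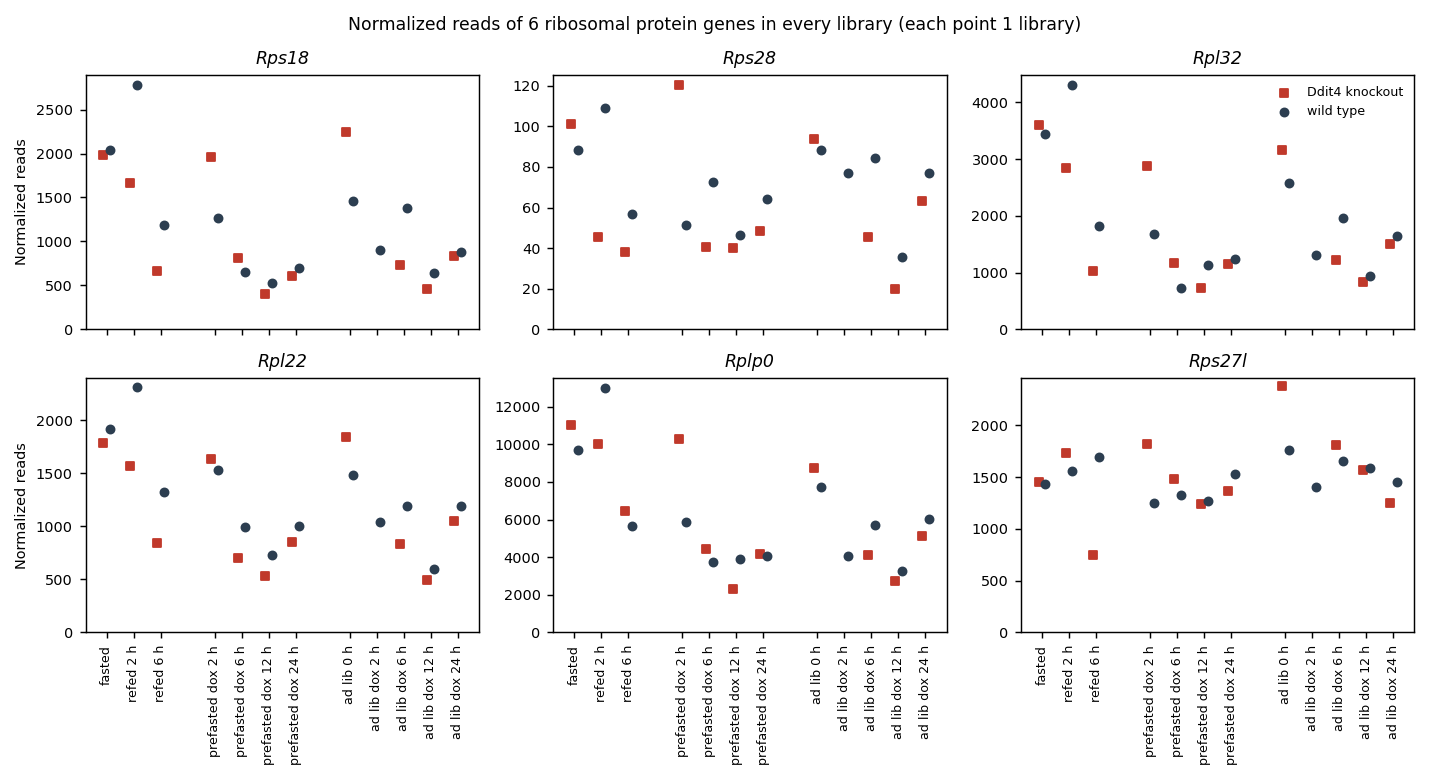
Normalized reads (y axes, from 0) of Rps18, Rps28, Rpl32, Rpl22, Rplp0 and Rps27l in every library, KO as red squares and WT as dark blue circles, by condition along the x axis. Rpl22 stands at 494 and 594 reads at 12 h of doxorubicin in ad libitum mice, below the other 7 ad libitum libraries, while Rps27l lies between 748 and 2379 over all 23 libraries.

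The 12 h count moved with single libraries. The share of all genes tested that fell in each refit is not given here, so the counts below describe the calls alone. Without the KO library at 12 h, or without the KO untreated library, 2 members passed, with Rpl22 among them in both cases. Without the WT library at 12 h it was 19, and without the WT untreated library 24. Without the 3 libraries with no Y-linked reads, of which the KO ad libitum one is used here, 1 member passed (Rpl22). Without the 2 libraries with pancreatic transcripts 40 passed. Over all single libraries left out, the members' median log2 fold stayed between -1.28 and -0.87. Without the 3 libraries with no Y-linked reads it was -0.86.

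At 6 h and 24 h no member passed in limma (0 of 73 each, where 1.34% and 3.11% of genes tested passed in either direction), with 26 and 17 members at an unadjusted p under 0.05. By other tools edgeR gave 0 and 0, and DESeq2 gave 4 (all lower, among them Rpl22, Rpl26 and Rps21) and 1 (Rps18, lower), where 4.19% and 7.06% of genes tested passed in DESeq2. The members' median log2 fold against the untreated libraries was -0.50 at 6 h (62 of 73 below 0), -1.06 at 12 h and -0.48 at 24 h (64 below 0), against medians of 0.00, -0.01 and 0.02 over all genes tested. All 3 contrasts share the untreated libraries. Without the 3 libraries with no Y-linked reads, which leaves the WT untreated one as baseline, the medians were -0.29 at 6 h and -0.25 at 24 h. Rps18, with a log2 fold of -1.09 ± 0.33 (adjusted p = 0.083), had the smallest p among the members at 24 h. From 12 h to 24 h the members' median difference was 0.65 in KO libraries (69 of 73 higher at 24 h) and 0.60 in WT libraries (64 of 73 higher), each between 2 single libraries and untested. At 24 h against 6 h the median log2 fold was 0.07, and 0 of 73 members passed (0% of genes tested; 0 members at an unadjusted p under 0.05, 0 in edgeR and 0 in DESeq2).

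At 2 h the only ad libitum library of doxorubicin is WT. It stood below the WT untreated library in 60 of 73 members, with a median difference of -0.42, against -0.01 over all genes tested, which has no replicate.

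Genes that share the tract or the task of making ribosomes were counted beside the members at 12 h. Of 20 other mRNAs with a known TOP tract, 9 fell, with a median log2 fold of -0.67. They include Rack1, a scaffold on the small subunit (-1.27 ± 0.21, adjusted p = 0.0023), the initiation factor subunit Eif3e (-0.89 ± 0.17, adjusted p = 0.0053) and Eif3h (-0.78 ± 0.16, adjusted p = 0.0077). Of 76 mitochondrial ribosomal protein genes tested, which serve the organelle's own ribosome, 26 fell, led by Mrpl9 and Mrps2, with a median of -0.67. Of 29 ribosome biogenesis genes 4 fell, Nolc1, Nhp2, Bop1 and Pes1, with a median of -0.79. Of 4 related genes tested that the naming pattern leaves out, 2 fell, Rps3a1 (-1.10 ± 0.22, adjusted p = 0.0080) and Rps27rt (-0.94 ± 0.25, adjusted p = 0.029).

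Of 11 mTORC1 brakes and 4E-BP genes, Eif4ebp3, a repressor of cap-dependent translation, rose (log2 fold 3.80 ± 0.70, adjusted p = 0.0047) and Deptor, an mTOR inhibitor, fell (-2.10 ± 0.39, adjusted p = 0.0047). Eif4ebp3 had 80.4 (KO) and 130 (WT) normalized reads at 12 h, against 2.26 (KO) and 15.9 (WT) without the drug. That baseline is a few reads in KO, and the untreated fasted libraries had 253 (KO) and 196 (WT). Of 10 p53 targets 3 rose, Cdkn1a, Trp53inp1 and Btg2, with a median of 0.67. Members with the tract at the annotated start had a median log2 fold of -0.95 at 12 h (5 of 12 fell). The matched members without it at that base had -1.06 (19 of 42 fell), a difference that was not tested. This split depends on the exact start listed, and 25 of the 54 held a tract at or near it.

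Markers of several cell types moved with these counts. Of 9 markers of cycling crypt cells 3 fell at 12 h, with a median log2 fold of -1.94 and all 9 below 0. Their summed level was 1480 (KO) and 1709 (WT) normalized reads at 12 h, against 2723 (KO) and 3176 (WT). Of 5 stem cell markers 2 fell, with a summed level of 453 (KO) and 507 (WT), against 2400 (KO) and 3352 (WT). Of 9 Paneth cell markers 2 fell, with sums of 8058 (KO) and 4431 (WT), against 21992 (KO) and 27916 (WT). Of 4 smooth muscle markers tested 3 fell, with a median of -2.26 and all 4 below 0, and the 5 listed summed to 169 (KO) and 426 (WT), against 2369.5 (KO) and 608 (WT). Of 9 enterocyte markers 1 rose, with a median of 0.62, and of 6 fat cell markers 1 rose, with a median of 1.37. No marker of the cycling, stem, Paneth, enterocyte and smooth muscle lists was at 0 in any of these libraries, their part in the result was not tested, and in whole tissue fewer cells of a type and less RNA per cell cannot be told apart.

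**Figure D4:**
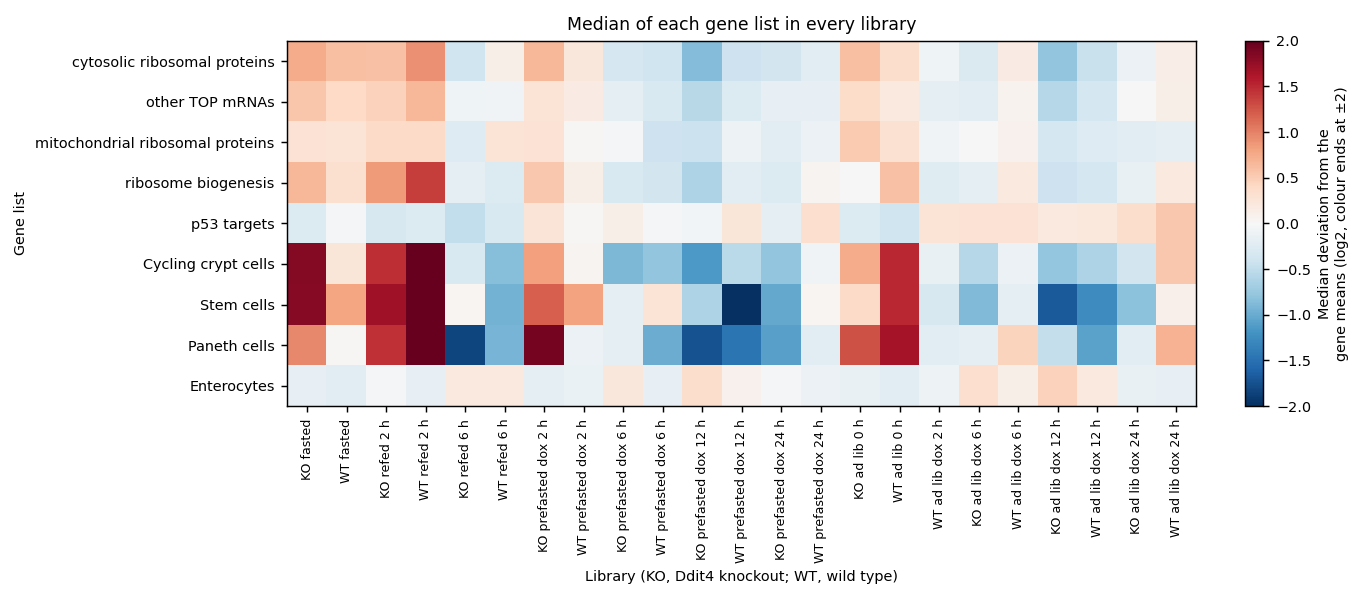
Rows are gene lists and columns the 23 libraries, KO before WT within a condition; colour is the median over the list of the deviation from each gene's mean (log2, colour ends at ±2). The ribosomal protein row is highest in the WT library refed for 2 h (0.92) and lowest in the KO prefasted library at 12 h of doxorubicin (-0.86), libraries where the rows of cycling crypt and Paneth markers are high and low too.

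Feeding was compared without the drug to describe how these genes followed fasting and the return of food. Fasting for 24 h against ad libitum feeding gave 0 of 73 calls in limma (0.343% of genes tested passed; 2 members at an unadjusted p under 0.05, 0 in edgeR and 0 in DESeq2). The median log2 fold was 0.25, with 61 members above 0, against 0.00 over all genes tested. Rpl4, at 0.50 ± 0.20 (adjusted p = 0.54), had the smallest p. Refeeding for 2 h against fasting gave 0 calls as well (0.251% of genes tested passed; 0 members at an unadjusted p under 0.05, 0 in edgeR and 0 in DESeq2), with a median of 0.09. In both contrasts 0 members passed in limma without the 3 libraries with no Y-linked reads (medians 0.27 for fasting and 0.33 for refeeding) and without the 2 with pancreatic transcripts (0.09 and 0.21).

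After 6 h of refeeding, 21 of 73 members fell against the fasted libraries and 0 rose (3.46% of genes tested fell, 3.56% rose). The median log2 fold was -0.82, with 68 of 73 below 0, against -0.05 over all genes tested. The calls were 9 of 28 small subunit genes, 12 of 41 large subunit genes and 0 of 3 P stalk genes. Against the libraries refed for 2 h, 28 members fell and 0 rose (5.4% of genes tested fell, 3.6% rose), with a median of -0.92. These 2 contrasts share the 6 h libraries. Fasted libraries are labelled 0 h and refed ones 2 or 6 h. Time of day and time in the experiment therefore cannot be told apart from refeeding in any of these contrasts.

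Rps16, of the small subunit, had 4.92 (KO) and 13.4 (WT) normalized reads after 6 h of refeeding, against 46.9 (KO) and 55.6 (WT) in fasted mice. The log2 fold was -2.50 ± 0.66 (adjusted p = 0.034), at levels of a few reads. Rpl35, near the exit of the nascent chain tunnel, had 41.8 (KO) and 36.8 (WT) after 6 h, against 136 (KO) and 99.7 (WT) in fasted mice. Its log2 fold was -1.55 ± 0.43 (adjusted p = 0.043). Rpl23 had 130.3 (KO) and 217 (WT), against 441 (KO) and 490.1 (WT) in fasted mice, a log2 fold of -1.46 ± 0.30 (adjusted p = 0.013). Rpl37a had 44.2 (KO) and 95.3 (WT), against 177 (KO) and 181 (WT) in fasted mice, a log2 fold of -1.45 ± 0.37 (adjusted p = 0.030). These 4 are the largest falls past the threshold, so that their 6 h libraries lie below the fasted ones follows from their choice.

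Rpl4, named after its values were seen, is a large subunit protein that lines the exit tunnel, and it had 4225 (KO) and 4554 (WT) after 6 h of refeeding, against 9481 (KO) and 8363 (WT) in fasted mice and 7995 (KO) and 10410 (WT) at 2 h. It fell by 1.02 ± 0.20 on the log2 scale against fasting (adjusted p = 0.0097) and by 1.06 ± 0.20 against 2 h (adjusted p = 0.0077). Against 2 h the largest falls past the threshold were those of Rps16 (log2 fold -2.62 ± 0.66), Rpl3 (-1.52 ± 0.38), Rpl35 (-1.50 ± 0.43) and Rpl36 (-1.42 ± 0.41). Rplp0 (-0.92 ± 0.27, adjusted p = 0.043) and Rpsa (-0.84 ± 0.24, adjusted p = 0.039) fell against 2 h, and against fasting had -0.78 ± 0.27 (adjusted p = 0.085) and -0.72 ± 0.24 (adjusted p = 0.076). Rps27l had log2 folds of -0.36 ± 0.28 against fasting and -0.54 ± 0.28 against 2 h, neither past the threshold. The highest member, Rps14, had 6870 (KO) and 12499 (WT) after 6 h, against 8104 (KO) and 9391 (WT) in fasted mice, where the conditions overlapped (log2 fold 0.09 ± 0.23, adjusted p = 0.85).

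The refeeding counts depend on the libraries that stand apart. As at 12 h of doxorubicin, the share of all genes that fell in each refit is not given beside them. Against fasting, 0 members passed without the KO fasted library, 2 (Rpl4 among them) without the KO library refed for 6 h and 12 without the WT fasted library. It was 0 without the 3 libraries with no Y-linked reads, and 1 (Rpl9) without the 2 with pancreatic transcripts. Against 2 h, 0 members passed without the WT library refed for 2 h, 3 (Rpl23, Rpl4 and Rps26) without its KO partner, 5 (among them Rpl4, Rpl7, Rps29 and Rps4x) without the KO library refed for 6 h and 0 without the 3 libraries with no Y-linked reads. Without the 2 libraries with pancreatic transcripts 25 passed. Over all single libraries left out, the median log2 fold stayed between -1.02 and -0.63 against fasting and between -1.06 and -0.69 against 2 h.

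Within genotype, the members' median difference between 6 h of refeeding and fasting was -1.14 in KO libraries (70 of 73 lower) and -0.51 in WT libraries (61 of 73 lower). Between 6 h and 2 h of refeeding it was -0.92 in KO and -0.81 in WT libraries. Each is a difference of single libraries, and both genotypes point the same way.

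The same lists were counted after refeeding. Against 2 h, 5 of 20 other TOP mRNAs fell (median log2 fold -0.57, all 20 below 0), with 15 of 29 ribosome biogenesis genes (median -1.35, all 29 below 0) and 6 of 76 mitochondrial ribosomal protein genes (median -0.38). Against fasting the counts were 5 of 20, 6 of 29 and 3 of 76. Of all genes tested 5.4% fell against 2 h and 3.46% against fasting, and the mitochondrial count against fasting lies near that share. Of the 9 cycling crypt markers 8 fell against 2 h and 2 against fasting, with summed levels of 1356 (KO) and 1494 (WT) normalized reads after 6 h, 3068 (KO) and 4526 (WT) after 2 h and 3546 (KO) and 1813 (WT) in fasted mice. Of 9 Paneth cell markers 7 fell against 2 h and 1 against fasting, with sums of 3190 (KO) and 6591 (WT) after 6 h, 23703 (KO) and 55612 (WT) after 2 h and 17180 (KO) and 9843 (WT) in fasted mice. Of 5 stem cell markers 3 fell against 2 h, with a median of -1.72 and all 5 below 0, and 1 against fasting. Of 6 fat cell markers 4 fell against 2 h, with a median of -6.52 and all 6 below 0, and 1 of 6 was above 0 in the KO library refed for 6 h, against 6 of 6 in each 2 h library. At 6 h the KO library had 8 of the 9 Paneth markers above 0. The 9 pancreatic acinar markers summed to 182 (KO) and 191237 (WT) after 6 h, against 72238 (KO) and 250.4 (WT) in fasted mice, with 6 of 9 above 0 in the KO library refed for 6 h. The part of these cells in the result was not tested.

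**Figure D5:**
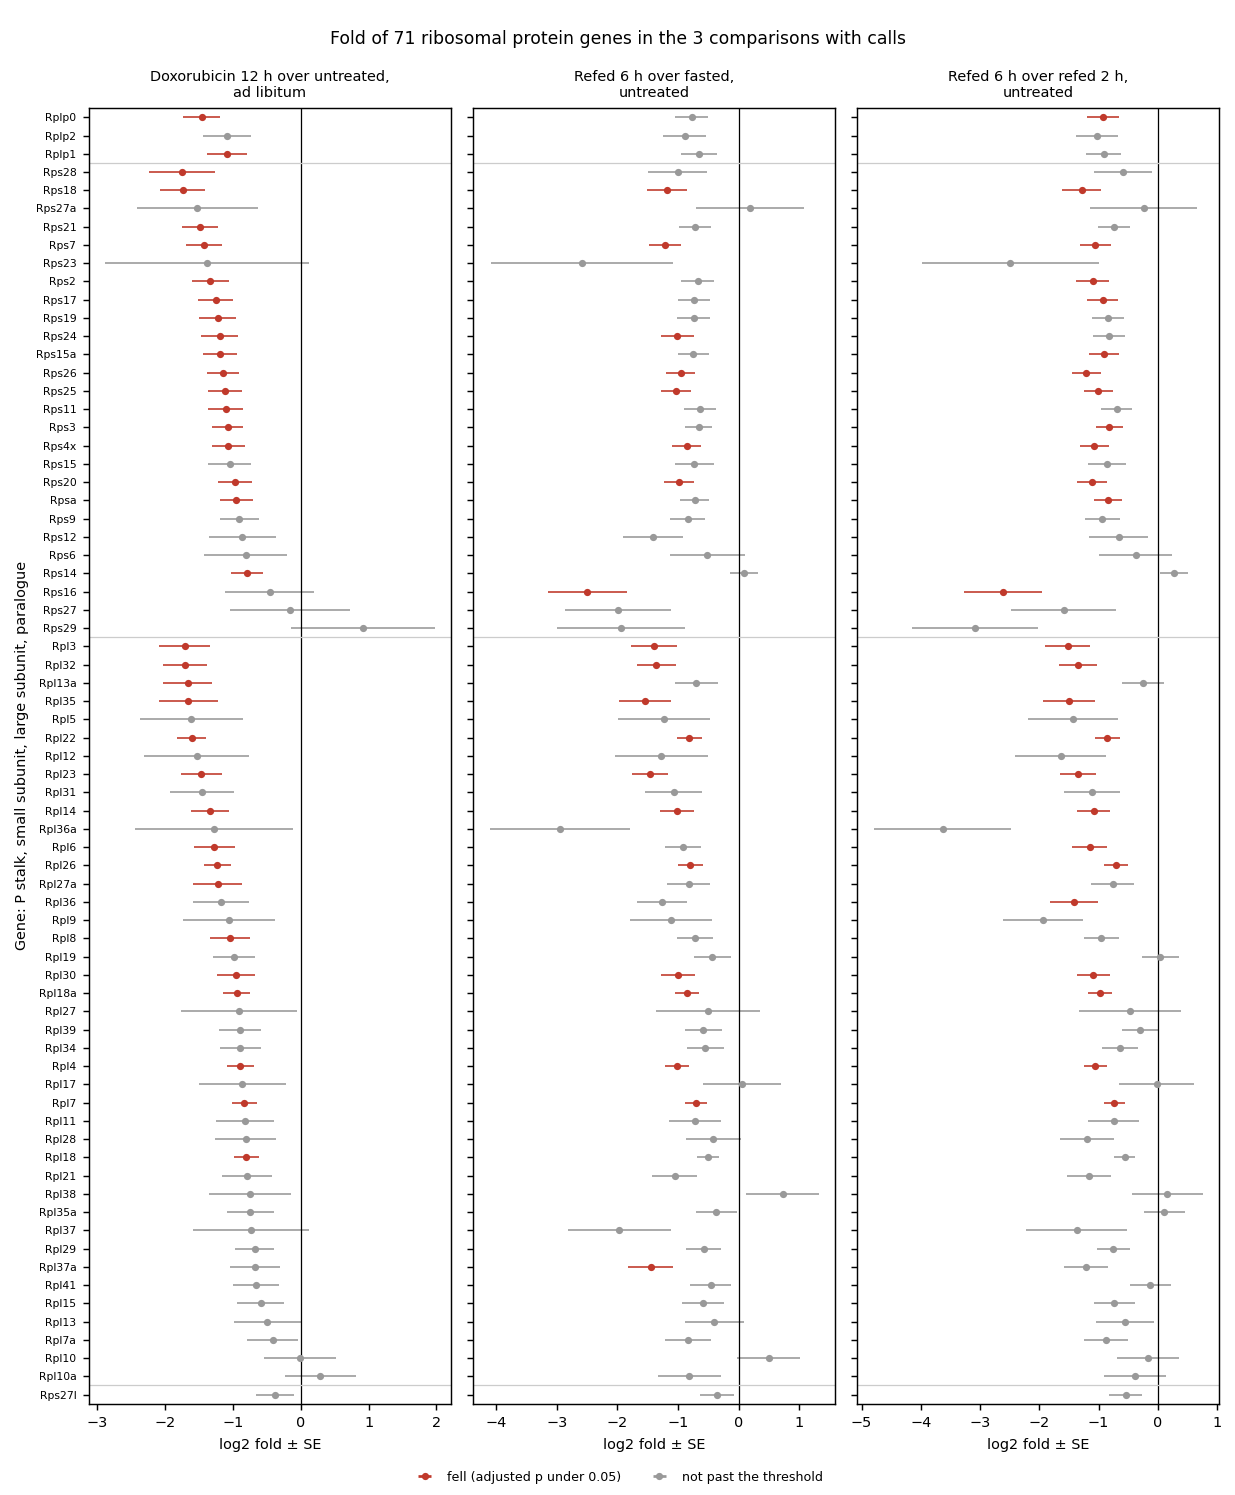
Log2 fold with its standard error (x axes) of 71 of the 73 genes (rows, ordered within subunit by the 12 h fold) for doxorubicin at 12 h over untreated in ad libitum mice, 6 h of refeeding over fasting, and 6 h over 2 h of refeeding; genes past the threshold are red. The red genes drawn number 35, 20 and 26, all on the left of 0, with Rps27l in the last row grey in each panel.

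The 12 h doxorubicin and the 6 h refeeding contrast against fasting share no library, though they come from 1 model with 1 estimate of spread. In both, the KO baseline library lacks Y-linked reads. Without such libraries each baseline is the WT library alone, with median log2 folds over the members of -0.86 (doxorubicin) and -0.63 (refeeding). The overlap uses these KO libraries, and with the WT baseline alone too few members pass for an overlap to be counted. The KO fasted and WT refed 6 h libraries of the refeeding contrast also carry pancreatic transcripts. Of the 21 members that fell with refeeding 19 (90.5%) also fell at 12 h of doxorubicin, and these are 51.4% of the 37. Over all genes tested, 80 of the 413 that fell with refeeding (19.4%) were among the 503 that fell at 12 h of doxorubicin (15.9% of them). The members' share of falls was above that of all genes tested in both contrasts, and the difference between these shares was not tested. Rps16 and Rpl37a passed for refeeding and not at 12 h of doxorubicin. The contrasts differ in feeding history as well as drug, and the difference between them was not tested. Both set a later time against baseline libraries of an earlier time label, so time cannot be told apart from drug or refeeding.

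Prefasted mice were followed after doxorubicin to describe these genes when a fast came before the drug. Against untreated mice refed for the same time, 0 of 73 members passed at 2 h (0.0335% of genes tested passed; 6 members at an unadjusted p under 0.05) and 0 at 6 h (0% of genes tested; 7 members at an unadjusted p under 0.05), with 0 in edgeR and 0 in DESeq2 at both times. The median log2 folds were -0.30 and -0.23. Without the 4 libraries with conflicting titles they were 0.04 and -0.11, again with 0 calls in limma. At late against early times in prefasted mice (12 and 24 h against 2 and 6 h) 0 members passed in limma and in edgeR and 11 in DESeq2, where 0.0921% of genes tested passed in limma and 1.21% in DESeq2. The median log2 fold was -0.52 with 66 of 73 below 0, and 38 had an unadjusted p under 0.05. In these libraries time after the drug and time since food returned rise together. Drug, refeeding and time of day therefore cannot be told apart in the late against early contrast. Rps19, named after its values were seen, is a small subunit protein mutated in human Diamond-Blackfan anaemia. It had 1420 and 1099 normalized reads at 2 h (KO, WT), 590.4 and 664 at 6 h, 311 and 471 at 12 h, and 481 and 551 at 24 h. All 4 late libraries lay below all 4 early ones, which follows in part from its choice as the member nearest the threshold. The Rps19 log2 fold in limma was -0.99 ± 0.19 (adjusted p = 0.062). Without the 4 libraries with conflicting titles 5 members passed (among them Rpl8, Rplp0, Rplp1 and Rps9), where 0.637% of genes tested passed. Without the WT prefasted library at 2 h of doxorubicin 9 did, where 0.695% passed.

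Prefasted and ad libitum mice were compared after the drug in 7 pairs of the same genotype and time. In limma 0 of 73 members passed (0% of genes tested; 5 members at an unadjusted p under 0.05), with 0 in edgeR and 0 in DESeq2. The median log2 fold was -0.13, with 57 of 73 below 0, and -0.14 without the 4 libraries with conflicting titles. For Rplp0 it was -0.12 ± 0.14, for Rps18 -0.25 ± 0.15 and for Rpl22 -0.01 ± 0.12. The change in this effect between late and early times had a median of -0.07, again with 0 calls in limma (0% of genes tested; 2 members at an unadjusted p under 0.05), 0 in edgeR and 0 in DESeq2. The direction was not the same at every time. At 2 h, where the ad libitum library is WT alone, 66 of 73 members were higher in the prefasted libraries, with a median log2 fold of 0.66. In limma 0 passed (0.159% of genes tested; 29 members at an unadjusted p under 0.05), with 0 in edgeR and 0 in DESeq2. When those 4 with conflicting titles were left out, which leaves the KO prefasted library against the WT ad libitum one, the median was 1.06 and 1 member, Rplp0, rose. Between the WT libraries at 2 h the median difference was 0.33, with 56 of 73 higher in the prefasted one. At 6 and 12 h the median log2 folds were -0.26 and 0.01, with 0 members called in limma (0.00838% and 0% of genes tested; 9 and 2 members at an unadjusted p under 0.05) and 0 in edgeR and in DESeq2. At 24 h the median was -0.31, with 0 called in limma (0% of genes tested; 3 members at an unadjusted p under 0.05), edgeR and DESeq2. There both genotypes had lower members in the prefasted library, in 60 of 73 (KO, median -0.30) and 61 of 73 (WT, median -0.35), differences between single libraries that were not tested.

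Loss of Ddit4 was compared with the wild type over the 11 matched pairs. In limma 0 of 73 members passed (0.578% of genes tested passed; 7 members at an unadjusted p under 0.05), 0 passed in edgeR and 1, Rps14, in DESeq2, where 2.66% of genes tested passed. The median log2 fold was -0.13, with 64 of 73 below 0, against -0.01 over all genes tested. It was -0.25 without the 4 libraries with conflicting titles and -0.18 without the 3 with no Y-linked reads. Rps14 ranged from 3012 to 8104 normalized reads in the KO libraries and from 3923 to 12499 in the WT libraries. It came nearest the threshold, at -0.39 ± 0.10 (adjusted p = 0.095), followed by Rpl22 (-0.28 ± 0.09, adjusted p = 0.20) and Rpl39 (-0.39 ± 0.13, adjusted p = 0.21). By pair, the members' median was lower in KO in 7 of 11. The lowest were refed 6 h without drug (-0.54), ad libitum at 6 h of doxorubicin (-0.51) and prefasted at 12 h (-0.46), and the highest were prefasted at 2 h of doxorubicin (0.47) and ad libitum without drug (0.25). Whether the KO effect differed with the drug was tested with a genotype by drug term, where 0 members passed in limma (0% of genes tested; 1 member at an unadjusted p under 0.05), 0 in edgeR and 0 in DESeq2, with a median of -0.01. Without the 4 libraries with conflicting titles this median was -0.24, and without the 3 with no Y-linked reads it was 0.32, so its sign depended on the libraries kept. Untreated KO libraries include those 3 without Y-linked reads, so what sets them apart cannot be told apart from drug within the knockout.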

How the data were processed

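Poly-A RNA of whole proximal small intestine was sequenced as paired reads without strand. The deposited values are a signal: read counts per gene that the authors divided by size factors, with Trim Galore, STAR, DESeq2 and build mm10 named in the submitters' processing notes. Versions, annotation and the treatment of reads with several positions are not given in the sources used here. Every value was a whole multiple of 1 read's worth in its library (100% within 0.01), so reads were recovered for depth and for the count tests.

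Genes with a mean of at least 10 (11939) were tested with limma 3.58.1 in R 4.3.3 on log2(value + 1), which understates changes of low genes, in 1 model over all 23 libraries with condition and genotype (plus a genotype by drug term for that test; prefasting after the drug was fitted over 7 pairs of the same genotype and time), and adjusted over all genes by Benjamini-Hochberg at 0.05. Alternatives were edgeR 4.0.16 and DESeq2 1.42.0 on recovered reads, other pseudocounts, filters, scalings and weights, and libraries left out. Scripts were tested on simulated data. Intervals cover counting error only. Members and lists were chosen with earlier results of these data known. Named genes were the 4 largest rises and falls past the threshold, paralogues, P stalk, Rpsa, Rps27a, Rpl5, Rpl11, Rps6 and extremes of level and spread; members named for the smallest p or behind a count of 5 or fewer were chosen after their values were seen. Results of some single genes are not reported here, though the counts include them.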

Additional observations from a re-analysis of the deposited data

Results flagged for a closer look

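In 6 contrasts the members' median log2 difference pointed opposite ways in the genotypes. They were picked by sign alone, whatever the size, and some of the medians lie near 0. Each rests on single libraries per genotype and condition, and the difference was not tested in any of them. For 2 h of refeeding over fasting the median was -0.19 in KO and 0.33 in WT libraries, a KO minus WT difference of -0.53. For doxorubicin over no drug in prefasted mice it was 0.07 in KO and -0.71 in WT at 2 h (difference 0.78), and 0.13 in KO and -0.56 in WT at 6 h (difference 0.69). The WT doxorubicin libraries there are among those with conflicting titles. For 24 h over 6 h of doxorubicin in ad libitum mice it was 0.20 in KO and -0.02 in WT (difference 0.21). For prefasted over ad libitum mice it was 0.01 in KO (37 members higher, 36 lower) and -0.61 in WT at 6 h (difference 0.62). At 12 h it was -0.13 in KO and 0.10 in WT (difference -0.23).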

How the results depend on the processing

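The members called moved with the processing as follows, and the cause was not tested. The share of all genes tested that passed differs between settings too, and is not given beside the counts in this paragraph. These counts therefore describe the calls alone, not an excess of members over all genes. For 6 h of refeeding over fasting, 21 were called, 0 with array weights, 0 without the 3 libraries with no Y-linked reads, 1 without those with pancreatic transcripts, and 0 to 27 with single libraries left out. For 6 h over 2 h of refeeding, 28 were called, 4 with array weights, 0 without the 3 libraries with no Y-linked reads, and 0 to 36 with single libraries left out. For 12 h of doxorubicin, 37 were called, 1 without the 3 libraries with no Y-linked reads, and 2 to 43 with single libraries left out. At 6 h of doxorubicin 0 were called, 1 after quantile normalization, 5 with array weights and 4 in DESeq2. At 24 h 0 were called, 7 with array weights and 1 in DESeq2. For doxorubicin in prefasted mice at 6 h, 0 were called, 1 without the libraries with pancreatic transcripts, and 0 to 2 with single libraries left out (without the WT library refed for 6 h, Rps27 and Rps27l, both higher). For late over early times in prefasted mice, 0 were called, 11 in DESeq2, 5 without the libraries with conflicting titles, and 0 to 9 with single libraries left out. For KO over WT, 0 were called, 1 (Rps14) each after quantile normalization, in DESeq2 and without the 3 libraries with no Y-linked reads, and 0 to 1 with single libraries left out (1 without either untreated ad libitum library). The labels give no replicate numbers, so no fit with a block for them was made, and pairs were formed by genotype, condition and time only. With 1 library per genotype and condition, low members are limited by counts of a few reads.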
